A study of Mus musculus with 8 samples.

Results

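The receiving side of a synapse is built from scaffold proteins, which hold receptors and enzymes beneath the membrane, and from adhesion proteins, which reach across the cleft to the transmitting neuron. Here 40 genes of this machinery were followed in the cerebral cortex of adult mice, out of 28732 genes in the count table. They were matched by gene symbol, and each of the 40 had 1 row after repeated gene IDs were removed. The series set mice that can lose the kinase TAK1 from endothelial cells, the lining of blood vessels, against littermates that cannot, and its title concerns blood-vessel regression and neuronal activity. The 4 knockout samples carried Cdh5-CreER together with Tak1fl/fl, and the 4 control samples carried Tak1fl/fl alone. Cdh5-CreER is a recombinase that needs tamoxifen to act and is driven by the promoter of an endothelial cadherin gene, and both groups were given tamoxifen. Age was postnatal day 90 in the sample labels and 12 to 14 weeks in the series text. Libraries are named by their column numbers, which run from 2 to 5 for knockouts and from 1 to 4 for controls. Nothing states that each library comes from its own animal, so what the p-values measure is the spread from library to library, which may be technical.

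At excitatory synapses, membrane-associated guanylate kinases such as Dlg1 to Dlg4 bind receptors, and the SAPAP proteins (Dlgap1 to Dlgap4) bind the guanylate kinases. SHANK proteins bind the SAPAP layer, and HOMER proteins bind SHANK and form a deeper mesh with it. Neuroligins and LRRTM proteins on the receiving neuron bind neurexins on the transmitting neuron, and gephyrin (Gphn) is the main scaffold of inhibitory synapses. CaMKII, an enzyme switched on by calcium and calmodulin, and the actin regulators of the dendritic spine change the strength and shape of the synapse with activity.

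Of the 40 members, 38 passed the expression filter and were tested. Dlgap2 and Homer2, both scaffold genes, fell in knockouts, and no member rose in edgeR's quasi-likelihood test at an adjusted p of 0.05. These 2 members are 5.26% of those tested. Of all 15564 tested genes 6.43% were called, 2.99% lower and 3.44% higher, so the share of members called is near that of all genes. At an unadjusted p under 0.05, 10 of the 38 tested members were lower and 3 higher, against 12.8% lower and 13.0% higher among all tested genes. The share of members lower is above that of all genes and the share higher is below it. Members share libraries, so these counts are a description. The median log2 fold change of the members was -0.03, against -0.0021 over all tested genes, and 1 member, Ppp1r9b, was more than 1.5-fold apart between the group averages. The authors' deposited table had Homer2, Dlgap2, Ppp1r9b, Shank3, Dlgap3 and Shank1 lower at an adjusted p of 0.05, 6 members in all, and none higher, against 4.91% lower and 5.34% higher among all genes with an adjusted p. DESeq2 run on the same counts called those 6 lower and Camk2d higher, and limma voom called 3 lower and none higher.

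Scaffold members lay mostly below 0 and adhesion members mostly above. Of the 12 tested scaffold members of excitatory synapses, 11 had a log2 fold change below 0, with a median of -0.24. Of the 12 tested adhesion members, 8 were above 0, with a median of 0.13, and 2 were higher and 1 lower at an unadjusted p under 0.05. Of all tested genes 50.2% were below 0 and 49.8% above. The summed CPM of the tested members of each scaffold family was lower in all knockouts than in all controls. It was 903 to 1054 in knockouts and 1102 to 1126 in controls for the guanylate kinases without Dlg4. For the SAPAP genes it was 892 to 939 in knockouts and 970.3 to 1095 in controls. The HOMER sum holds Homer2 and Homer3 but not the more abundant Homer1, which is not a member and overlapped between the groups. CPM are counts scaled to the size of each library. All knockout libraries lay below all controls in 7 of the 12 scaffold members and in none of the adhesion members, where 2 lay above. Over all 38 members, 8 lay below and 3 above, which is 21.1% and 7.89%, while among all tested genes 7.65% lay below and 8.58% above. In single libraries, control 1 had the highest value of all 8 libraries in 11 members, 28.9% of those tested, against 19.8% of all tested genes. Both role sets were put together after the values of their members had been seen, so these counts are a description. With a trend on GC content and transcript length taken out of each library, 11 scaffold members were still below 0 but the median was -0.15. In that fit 5 members were lower and 6 higher at an unadjusted p under 0.05.

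Levels of other cells and regions bear on whole-tissue values, in which fewer cells of a type and less RNA per cell cannot be told apart. The cortical label was checked against excitatory neuron markers, whose 10 genes summed to 1245 to 1471 CPM in knockouts and 1178 to 1322 CPM in controls, with Neurod6 lower (adjusted p = 0.0186) and none higher. The 8 inhibitory neuron markers (736 to 815 CPM in knockouts and 671 to 785 CPM in controls), the 9 striatal markers (1299 to 1777 CPM in knockouts and 1438 to 1976 CPM in controls) and the 7 tested hippocampal markers (333 to 459 CPM in knockouts and 307 to 344 CPM in controls) held no call in edgeR. At an unadjusted p under 0.05 the inhibitory markers had 2 higher, the striatal markers 1 lower and the hippocampal markers 2 higher, and the authors' deposited table called 1 hippocampal marker higher and no other gene of these lists. Of 10 thalamic markers, which summed to 153 to 200.4 CPM in knockouts and 153 to 181 CPM in controls, Shox2 rose. At an unadjusted p under 0.05 there were 4 higher and 0 lower, 3 had all knockouts above all controls (Shox2, Gbx2 and Plekhg1), and the authors' deposited table called 2 higher. Shox2 (1.09 to 3.34 CPM in knockouts, 0 to 0.219 CPM in controls) and Gbx2 (means of 1.57 CPM in knockouts and 0.526 CPM in controls) were near the floor. The 6 tested choroid plexus and ependyma markers summed to 376 to 538 CPM in knockouts and to 15.0 to 188 CPM in controls, and 3 of them rose (Clic6, Otx2 and Folr1). Otx2 and Folr1 were near the floor in controls (means of 0.557 and 0.550 CPM). Most of the sum in knockouts was Ttr (351 to 513 CPM), as in control 4 (174 CPM), and Ttr did not pass in edgeR (adjusted p = 0.183). All knockouts lay above all controls in 5 of the 6 markers, and the authors' deposited table called 5 higher. Control 4 held 188 CPM of these markers and controls 1 to 3 held 15.0 to 20.8. Of the endothelial markers (8 tested, 167 to 276 CPM in knockouts and 139 to 192 CPM in controls) Cdh5 and Vwf rose and Tek fell, and without any 1 library other than knockouts 3 and 4 Cdh5 did not pass (adjusted p = 0.0567 to 0.121). Of the astrocyte markers (8 tested, 6257 to 7191 CPM in knockouts and 5867 to 6894 CPM in controls) Aldh1l1 rose and Slc7a10 fell. Oligodendrocyte markers (7 tested, 3146 to 3703 CPM in knockouts and 2617 to 3173 CPM in controls) had Mobp higher and Ermn lower. In these 2 lists all knockouts lay above all controls for Aldh1l1, Aldoc, Mbp and Cnp, and below for Slc7a10 and Ermn. The authors' deposited table called 2 astrocyte markers higher and 1 lower, and 3 oligodendrocyte markers higher and 1 lower. Microglial markers (7 tested, 133 to 262 CPM in knockouts and 259 to 356 CPM in controls) had C1qa higher, while 5 of the 7 were below 0, with a median log2 fold change of -0.55. Among them Cx3cr1 (-1.26 ± 0.49, adjusted p = 0.164) and Siglech (-0.60 ± 0.18, adjusted p = 0.0671) had all knockouts below all controls, and the authors' deposited table called 1 microglial marker lower and 1 higher. The part of these cell type differences in the levels of the members was not tested. Map3k7, the gene for TAK1, stood at 35.3 to 42.6 CPM in knockouts and 36.2 to 42.7 CPM in controls (adjusted p = 0.843), which does not check the deletion, because counts cover the whole gene and other cells express it. Libraries held 13483354 to 17728963 counts each.

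Dlgap2 encodes a SAPAP scaffold protein and lies on chromosome 8 from 14095865 to 14847680 (GRCm38, plus strand). It stood at 166, 172, 170.2 and 157 CPM in knockouts 2, 3, 4 and 5, and at 314, 224, 239.7 and 206 CPM in controls 1, 2, 3 and 4. The knockouts lay close together and below every control, and control 1 stood well above the other controls. This is a log2 fold change of -0.56 ± 0.12 (SE), and the edgeR adjusted p was 0.0219. Without control 1 it was -0.43 (adjusted p = 0.0472), and the call was lost without knockout 2, knockout 5 or control 2 (adjusted p = 0.0627, 0.0812 and 0.0588).

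Homer2 encodes a protein that links SHANK to metabotropic glutamate receptors and lies on chromosome 7 from 81600481 to 81707527 (GRCm38, minus strand). Its level was 63.5, 55.6, 58.1 and 49.1 CPM in knockouts 2, 3, 4 and 5, against 84.9, 76.9, 76.4 and 76.7 CPM in controls 1, 2, 3 and 4. The groups did not overlap, and controls 2, 3 and 4 were almost equal. The fall was -0.48 ± 0.11 (log2 ± SE, edgeR adjusted p = 0.0220), and it was lost without knockout 5, control 1, control 2 or control 3 (adjusted p = 0.0809, 0.0644, 0.0730 and 0.0511). The gene model Gm44570 covers 4.16% of the exonic bases of Homer2. The strand setting of the counting is unstated, and so reads of overlapping models cannot be told apart from those of Homer2. Of the other HOMER genes, Homer3 is a member and Homer1, the most abundant in CPM, stands in the list of other postsynaptic genes. Homer1 was at 256 ± 41.5 CPM in knockouts and 291 ± 5.45 CPM in controls (SD, n = 4 each) and did not pass (-0.18 ± 0.11, adjusted p = 0.328), with knockout 4 above every control. Homer3 was low, at 2.22 to 4.82 CPM in knockouts and 2.36 to 5.21 CPM in controls (log2 fold change -0.21 ± 0.30), and Ddx49 on the opposite strand covers 25.4% of its exonic bases.

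Promoters of Homer2 and Shank3 from RefSeq (GRCm38.p6) are shown here because these genes have small p-values and start in GC-rich sequence. Each runs 5′ to 3′ on the strand of the gene, minus for Homer2 and plus for Shank3, over 250 bases before and 50 bases after an annotated start. Capitals mark the GC box GGGCGG or its reverse complement, with overlapping matches counted, a motif found in 35.7% of the 32851 promoters and in 24 of the 48 promoters listed for 31 members.
Homer2 chr7:81706876-81707175: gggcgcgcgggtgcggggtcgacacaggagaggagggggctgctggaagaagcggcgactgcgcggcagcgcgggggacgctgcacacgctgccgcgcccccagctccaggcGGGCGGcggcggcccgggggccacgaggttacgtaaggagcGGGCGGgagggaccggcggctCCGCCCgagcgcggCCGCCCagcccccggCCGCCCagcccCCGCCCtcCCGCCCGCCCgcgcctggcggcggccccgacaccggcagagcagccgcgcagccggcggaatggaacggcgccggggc
Shank3 chr15:89499358-89499657: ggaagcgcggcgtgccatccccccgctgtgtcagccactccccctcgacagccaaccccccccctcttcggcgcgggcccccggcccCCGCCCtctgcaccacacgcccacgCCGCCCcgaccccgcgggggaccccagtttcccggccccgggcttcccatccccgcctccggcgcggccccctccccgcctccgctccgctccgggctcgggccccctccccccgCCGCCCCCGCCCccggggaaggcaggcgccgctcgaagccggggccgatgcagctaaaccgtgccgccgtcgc
The Homer2 window held 8 matches at a GC content of 82.3%, and the Shank3 window held 4 at 81.0%. An internal start of Homer2 and the listed start of Dlgap3 held 0 matches, at GC contents of 52.3% and 47.7%. The cyclic AMP response element TGACGTCA was found in none of the 48 member promoters and in 1.79% of all promoters. The AP-1 motif TGANTCA was found in 1 member promoter, of Nrxn3, and in 7.81% of all. Neither the glucocorticoid response element nor the NRF1 motif, both in their palindromic consensus form, was found in a member promoter, while they were found in 0.00913% and 0.971% of all promoters. Motifs were searched on both strands, and a match or its absence is a description of these windows.

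The SHANK family, the master scaffold of the excitatory postsynaptic density, did not pass in edgeR. Shank3 (chromosome 15, 89499623 to 89560261, GRCm38) stood at 177, 133, 178 and 143 CPM in knockouts 2, 3, 4 and 5, and at 204, 202, 219 and 203 CPM in controls 1, 2, 3 and 4 (log2 fold change -0.39 ± 0.11, adjusted p = 0.0525). Shank1, with the highest level per length of the family, stood at 463, 428, 432 and 405 CPM in knockouts, and at 526, 499, 553 and 508 CPM in controls (-0.27 ± 0.09, adjusted p = 0.0765). All knockouts were below all controls for both genes, while Shank2 overlapped, at 148 to 207 CPM in knockouts and 184 to 222 CPM in controls (-0.22 ± 0.12). The summed CPM of the family was 710 to 816 in knockouts and 886 to 989.6 in controls. In the authors' deposited table Shank3 (adjusted p = 0.0298) and Shank1 (adjusted p = 0.0450) were past the threshold. Transcripts of Shank3 and Shank1 are GC-rich, at 62.4% and 61.4%, against a median of 52.7% over the tested members and 49.0% over all tested genes. With the GC and length trend removed their log2 fold changes were -0.21 (adjusted p = 0.239) and -0.09 (adjusted p = 0.529). Across the 38 members, which share libraries and differ in depth, the log2 fold change went down with GC content (Pearson r -0.41, Spearman rho -0.43), while over 15560 tested genes these values were -0.035 and -0.061.

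**Figure D1:**
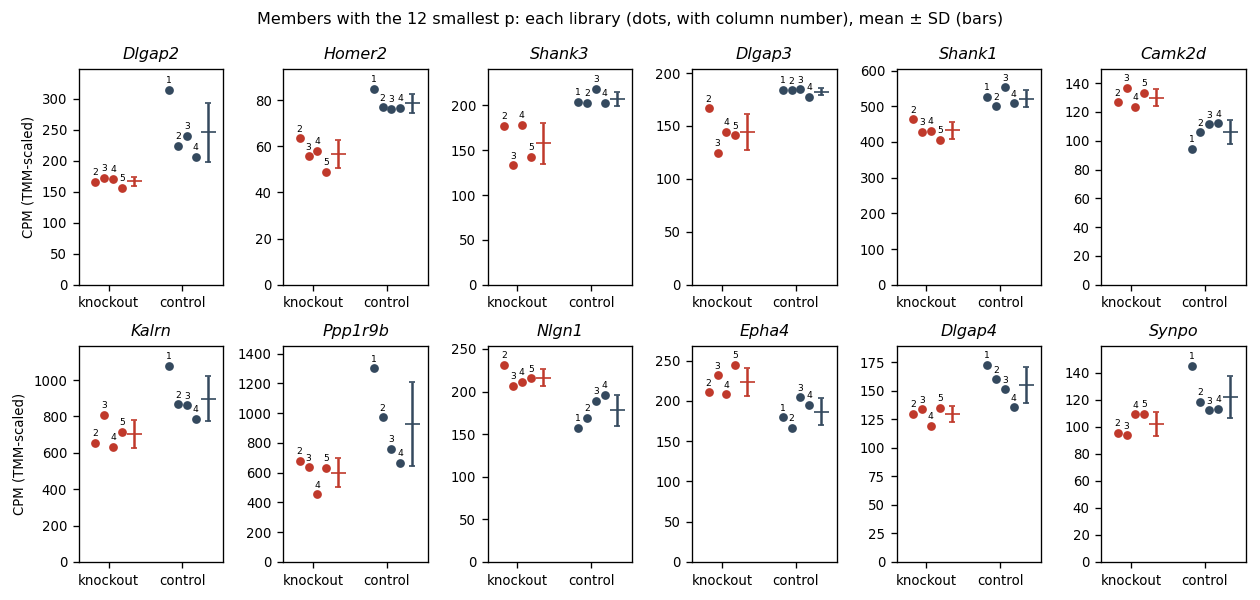
CPM in each library for the members with the 12 smallest p, with knockouts on the left and controls on the right of each panel, dots marked by column number and bars for mean ± SD. All knockouts lie below all controls for Dlgap2, Homer2, Shank3, Dlgap3, Shank1, Dlgap4 and Synpo, and above all controls for Camk2d, Nlgn1 and Epha4. The groups overlap for Kalrn and Ppp1r9b. Control 1 is the highest library for Dlgap2, Homer2, Kalrn, Ppp1r9b, Dlgap4 and Synpo.

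The other SAPAP genes did not pass in edgeR. Dlgap3 stood at 167, 125, 145 and 141 CPM in knockouts 2, 3, 4 and 5, against 184, 184, 185 and 178 CPM in controls 1, 2, 3 and 4 (-0.34 ± 0.10, adjusted p = 0.0625 in edgeR and 0.0436 in the authors' deposited table). The 4 controls were almost equal, and all knockouts were lower. Dlgap4 stood at 130.0, 134, 119 and 135 CPM in knockouts, against 173, 160.3, 151 and 136 CPM in controls (-0.26 ± 0.10, adjusted p = 0.128), again without overlap. With the GC and length trend removed, the log2 fold changes of Dlgap3 and Dlgap4 were -0.23 and -0.12, and that of Dlgap2 was -0.50 (adjusted p = 0.0199). Dlgap1 went the other way, at 462 to 496 CPM in knockouts and 407 to 463 CPM in controls (0.12 ± 0.09, adjusted p = 0.395).

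As a share of the family's summed level per length, Dlgap1 made up 25.1% to 27.6% in knockouts and 17.4% to 22.1% in controls. Dlgap2 made up 25.4% to 28.8% in knockouts and 29.4% to 37.6% in controls. These shares, and that of Nlgn3 among the neuroligins (13.6% to 16.7% in knockouts, 16.9% to 20.8% in controls), did not overlap between the groups. Each had the smallest p that an exact two-sided permutation test over 70 arrangements can give, 0.0286, which was 0.2 after adjustment over the 21 shares compared in 6 families. The other 18 shares overlapped or had larger p, and the CaMKII share held by Camk2a was 75.5% ± 3.37 in knockouts and 73.2% ± 1.46 in controls (SD, n = 4 each, exact permutation p = 0.286).

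The guanylate kinase scaffolds did not pass. Dlg1, which traffics glutamate receptors, stood at 224 to 261 CPM in knockouts and 266 to 297 CPM in controls, without overlap (-0.19 ± 0.09, adjusted p = 0.206). Dlg2, the highest of the 3 tested per length, stood at 620.2, 551, 609 and 506 CPM in knockouts 2, 3, 4 and 5, and at 616, 609, 668 and 662 CPM in controls 1, 2, 3 and 4 (-0.16 ± 0.09, adjusted p = 0.309). Dlg3 overlapped between the groups (-0.10 ± 0.09). Dlg4, the best-known scaffold of the postsynaptic density and an abundant gene of cortex in general knowledge, was listed with 1, 3, 4 and 3 counts in knockouts 2, 3, 4 and 5, and with 5, 3, 4 and 3 counts in controls 1, 2, 3 and 4. Nrxn2, a neurexin, was likewise listed with 0 to 1 count in knockouts and 0 to 4 counts in controls. Both were removed by the filter, and no statement on their RNA is drawn from these counts, since the annotation used for counting is not given in the sources used here.

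Adhesion members were mostly level or slightly higher. Nlgn1, the neuroligin of excitatory synapses, stood at 231, 207, 212 and 216 CPM in knockouts 2, 3, 4 and 5, and at 158, 169, 189 and 196 CPM in controls 1, 2, 3 and 4 (0.28 ± 0.10, adjusted p = 0.0965). Epha4, a receptor for ephrin ligands on neighbouring cells, stood at 211, 232, 208 and 244 CPM in knockouts, and at 179.7, 167, 204 and 195 CPM in controls (0.26 ± 0.10, adjusted p = 0.121). The knockouts were above all controls for both genes, although neither passed. Nlgn2, the neuroligin of inhibitory synapses, stood at 132, 171, 149 and 163 CPM in knockouts and at 139, 125, 139 and 138 CPM in controls (0.19 ± 0.10, adjusted p = 0.276), with knockout 2 inside the control range. Nlgn3 overlapped (-0.16 ± 0.12), and a gene model on the same strand covers 41.2% of its exonic bases.

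Nrxn3, the tested neurexin, stood at 269, 255, 317 and 284 CPM in knockouts 2, 3, 4 and 5, and at 226, 238, 288 and 275 CPM in controls 1, 2, 3 and 4 (0.13 ± 0.11, adjusted p = 0.475). The 4 LRRTM genes, whose products bind neurexins, all had log2 fold changes above 0, from 0.06 ± 0.15 for Lrrtm2 to 0.26 ± 0.12 for Lrrtm1 and 0.26 ± 0.13 for Lrrtm4, with overlap in each. Lrrtm3, the highest of them per length, stood at 58.0, 55.3, 51.9 and 42.8 CPM in knockouts and at 43.9, 51.5, 44.6 and 51.4 CPM in controls (0.12 ± 0.12). The sign of Lrrtm2 turned without knockout 4 (-0.07) or control 1 (-0.02).

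Icam5, a dendritic adhesion molecule of the telencephalon, stood at 109, 103, 99.6 and 124 CPM in knockouts 2, 3, 4 and 5, and at 139.7, 134, 117 and 123 CPM in controls 1, 2, 3 and 4 (-0.24 ± 0.11, adjusted p = 0.176). Knockout 5 lay inside the control range, and an antisense model covers 26.8% of the gene's exonic bases. Ephb2, an ephrin receptor that binds NMDA receptors, was low, at 11.4, 10.2, 11.5 and 10.6 CPM in knockouts and 14.7, 11.4, 14.9 and 12.7 CPM in controls (-0.30 ± 0.14, adjusted p = 0.198). Lrrc4, which binds netrin-G on the transmitting side, overlapped (-0.12 ± 0.10). Gephyrin, Gphn, stood at 71.5, 85.5, 73.8 and 79.3 CPM in knockouts and at 66.5, 66.2, 71.7 and 71.8 CPM in controls (0.17 ± 0.10, adjusted p = 0.311), with knockout 2 just inside the control range.

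Camk2d, the CaMKII subunit with the lowest level per length here, was the member of smallest p with a positive difference. It stood at 127, 137, 124 and 133 CPM in knockouts 2, 3, 4 and 5, and at 94.2, 106, 111 and 112 CPM in controls 1, 2, 3 and 4 (0.30 ± 0.10, adjusted p = 0.0776 in edgeR and 0.0541 in the authors' deposited table). All knockouts were above all controls. The main forebrain subunit Camk2a differed by 0.26 ± 0.14 on the log2 scale (adjusted p = 0.254), with knockout 5 at 3263 CPM and the other knockouts at 2065 to 2461 CPM, against 1843 to 2220.3 CPM in controls. Camk2b was at 581 ± 16.5 CPM in knockouts and 565 ± 15.3 CPM in controls (SD, n = 4 each, log2 fold change 0.04 ± 0.08), and Camk2g was at 0.04 ± 0.10.

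Neurogranin, Nrgn, which holds calmodulin near the membrane, had the highest level per length of the 40 members, at 450.5 CPM per kilobase of exon in knockouts and 472 in controls. It stood at 598, 726, 517 and 778 CPM in knockouts 2, 3, 4 and 5, and at 825, 778, 566 and 574 CPM in controls 1, 2, 3 and 4 (-0.07 ± 0.16, adjusted p = 0.833). The libraries of each group spread widely and overlapped. The cornichon Cnih2, a partner of AMPA receptors, stood at 28.9, 21.1, 25.3 and 32.4 CPM in knockouts and at 19.3, 26.2, 24.8 and 28.1 CPM in controls (0.13 ± 0.16). By control level per length, Nrgn was followed by Camk2a (278), Ppp1r9b (182), Camk2b (61.9) and Shank1 (49.6). The SD between the 4 controls was 93.0 for Nrgn, 21.9 for Camk2a, 55.4 for Ppp1r9b, 1.67 for Camk2b and 2.24 for Shank1, each smaller than the step to the next lower gene. Below them the order is less clear, since Ppp1r9a (44.3 ± 3.63), Icam5 (43.6 ± 3.49) and Dlgap3 (40.4 ± 0.739) lie close together. The lowest of the tested members were Homer3 (1.09 ± 0.383) and Ephb2 (1.07 ± 0.133).

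**Figure D2:**
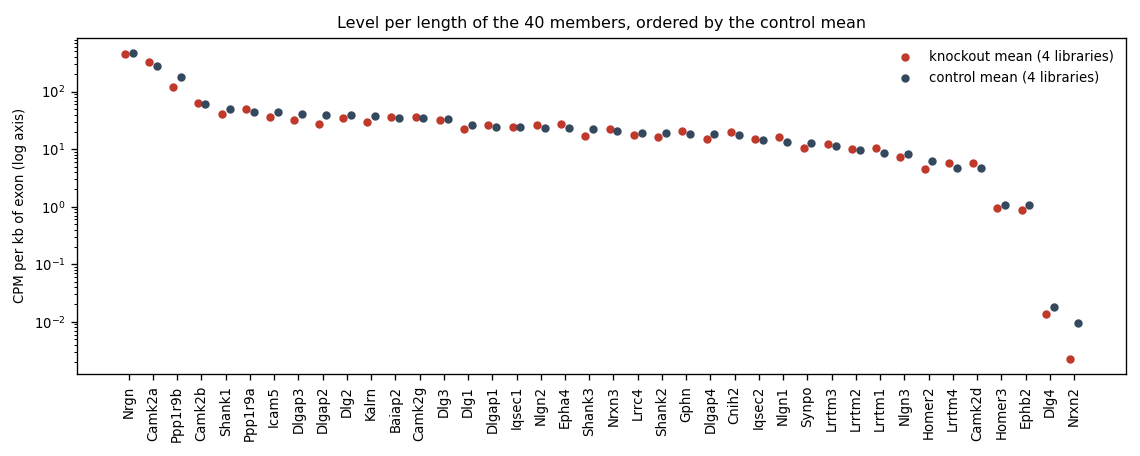
Mean CPM per kilobase of exon of all 40 members on a log axis, with knockouts beside controls and ordered by the control mean. Nrgn and Camk2a lead, most members lie between the levels of Camk2d and Shank1, and Dlg4 and Nrxn2 stand apart at the bottom.

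The genes of spine actin and signalling were split. Ppp1r9b encodes spinophilin, which anchors a phosphatase to spine actin, and it had the biggest difference of the tested members without passing (-0.62 ± 0.20, adjusted p = 0.0902). It stood at 678, 635, 454 and 634 CPM in knockouts 2, 3, 4 and 5, and at 1301, 972, 761 and 666 CPM in controls 1, 2, 3 and 4. Control 4 lay within the range of the knockouts, the controls had a coefficient of variation of 30.4%, and the gene passed when control 4 was left out (-0.75, adjusted p = 0.0384). In the authors' deposited table it was past the threshold (adjusted p = 0.0245).

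Kalrn encodes an exchange factor that drives spine growth, and stood at 654, 808, 634 and 714 CPM in knockouts 2, 3, 4 and 5, and at 1077, 867, 862 and 787 CPM in controls 1, 2, 3 and 4 (-0.35 ± 0.12, adjusted p = 0.0813). Knockout 3 lay inside the control range, and without it the gene passed (-0.41, adjusted p = 0.0421). Synpo, which encodes the spine apparatus protein synaptopodin, stood at 95.5, 93.6, 109 and 109.7 CPM in knockouts, and at 145, 118, 112 and 113 CPM in controls (-0.26 ± 0.11, adjusted p = 0.162). Its groups did not overlap, but the gap between knockout 5 and control 3 was small. The actin-binding scaffold Ppp1r9a (0.15 ± 0.10), the membrane-bending protein gene Baiap2 (0.06 ± 0.11) and the exchange factors Iqsec1 (0.01 ± 0.09) and Iqsec2 (0.06 ± 0.09) overlapped between the groups, with adjusted p between 0.391 and 0.971.

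**Figure D3:**
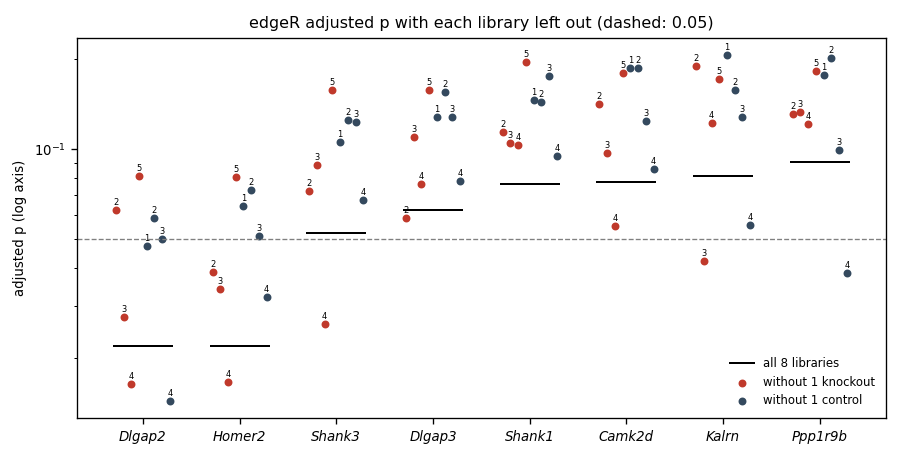
Adjusted p on a log axis in edgeR for the members with the 8 smallest p, over all libraries (black bars) and with each library left out (dots with column number, knockouts left of controls). Dlgap2 passed in 5 of 8 such fits and Homer2 in 4 of 8, and Shank3, Kalrn and Ppp1r9b each passed in 1.

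The summed levels of scaffold and activity-induced genes were set side by side in each library. The summed CPM of 17 tested activity-induced genes, a list that includes Arc, Fos and Bdnf, was 429.9, 299, 840.3 and 419 in knockouts 2, 3, 4 and 5, against 854, 899.9, 788 and 829 in controls 1, 2, 3 and 4. Knockout 4 lay within the range of the controls in this sum, to which Arc and Egr1 gave 135 and 183 CPM in knockout 4. For 5 of the 17 genes (Inhba, Ier5, Npas4, Nptx2 and Nr4a3) every knockout, knockout 4 included, lay below every control. The summed CPM of the 12 scaffold members was 2874, 2668, 2782 and 2641 in knockouts, against 3255, 3044, 3233 and 3070.2 in controls. All knockouts, knockout 4 included, lay below every control in this scaffold sum. The scaffold and adhesion sets were put together after their values had been seen, so this separation may follow from that choice. Whether the scaffold level follows that of the activity-induced genes was not tested. The 12 adhesion members summed to 1269.6, 1277, 1348 and 1354 CPM in knockouts and to 1161, 1137, 1271 and 1276 CPM in controls, with knockout 2 inside the control range. Without knockout 4, the members called were Dlgap2, Homer2 and Shank3, all lower. Of the activity list itself, 3 genes fell in edgeR (Inhba, Ier5 and Npas4), all of them among those 5, and none rose. All 17 genes were below 0, with a median log2 fold change of -0.72. At an unadjusted p under 0.05 there were 8 lower and 0 higher. The authors' deposited table called 6 of them lower and 0 higher.

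**Figure D4:**
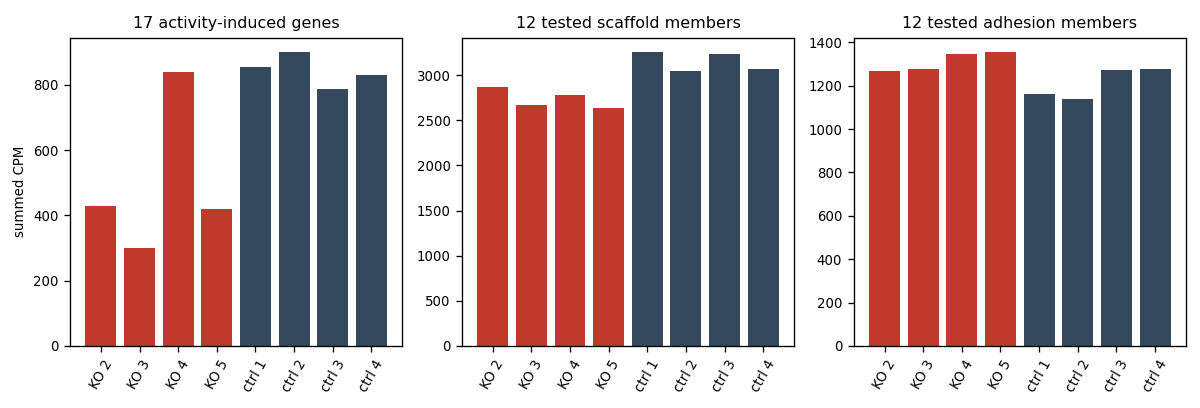
Summed CPM in each library for 17 activity-induced genes, 12 scaffold members and 12 adhesion members, with knockouts left of controls. Knockout 4 stands at 840.3 with the controls in the first panel and at 2782 with the other knockouts in the second. The scaffold and adhesion sets were put together after their values had been seen.

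Other genes of postsynaptic sites and synaptic adhesion, from a separate list, gave a like share of calls. Of 67 listed, 66 were in the table and tested. Among these 1 rose (1.52%), 3 fell (4.55%) and the other 62 did not pass, and their log2 fold changes had a median of 0.02. Shisa7, an auxiliary protein of neurotransmitter receptors, rose (0.65 ± 0.14, adjusted p = 0.0180), at 73.3 ± 10.7 CPM in knockouts and 46.5 ± 6.99 CPM in controls (SD, n = 4 each). The ephrin ligand gene Efnb2 fell (-0.47 ± 0.10, adjusted p = 0.0168), at 86.3 ± 3.18 CPM in knockouts and 119.7 ± 10.6 CPM in controls. Git1, a scaffold of spine signalling, fell (-0.45 ± 0.10, adjusted p = 0.0190), as did Grip2, which binds AMPA receptors (-0.53 ± 0.14, adjusted p = 0.0446). Efnb2 is also expressed in arterial endothelium, and in whole tissue its sources cannot be told apart. Groups did not overlap for any of the 4 genes. Each lost its call without knockout 5 or control 2 (adjusted p = 0.0627 to 0.129), as did Shisa7, Efnb2 and Grip2 without knockout 2, Shisa7, Git1 and Grip2 without control 1, and Grip2 without knockout 3 or control 3 (0.0541 to 0.108). Grip2 also lost it with the GC and length trend removed (0.0925) and with upper-quartile factors (0.0591).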

How the data were processed

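Total RNA of cerebral cortex from 8 mouse samples was sequenced. Per the submitters' processing notes, FastQC, HISAT, HISAT2, featureCounts and DESeq2 were used with GRCm38, without versions. The labels name a ChIP-seq library kit, and the strand setting is not given in the sources used here. The deposited counts per gene are whole numbers without normalization. The authors also deposited, per the file headers of a DESeq2 table, a mean signal, a log2 fold change with its error, a score (their ratio) and unadjusted and adjusted p-values. Of 29012 lines, 280 repeats were removed, and 28682 of 28732 gene IDs matched GENCODE M21, used for positions, exon lengths and GC content. Titles number the knockouts 5 to 8 and columns 2 to 5, so columns were tied to groups only.

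Genes were filtered with filterByExpr (13168 removed), scaled by TMM factors, then tested with the robust quasi-likelihood fit of edgeR, and p-values were adjusted over all 15564 genes by the Benjamini-Hochberg method. No covariate was used. Fold changes are knockout over control. The SE of a log2 fold change was derived from the test, as its absolute size divided by the square root of the F statistic. The members, lists and rules were chosen with earlier results of these data known. The named genes are all members, with every library's value for the 14 of smallest p and the most abundant per length of each class, and list genes that passed. Of the list genes, 6 were not matched and are not reported here. Within-group pairs of libraries differed beyond sampling noise (mean chi-square per gene 11.5 to 51.2). The procedure was also run on simulated data, whose outcome is not reported here, so no accuracy is claimed from it. The tools used were edgeR 4.0.16, DESeq2 1.42.0 and limma 3.58.1 in R 4.3.3, with pandas 2.3.3 and matplotlib 3.10.9 in Python 3.11.15.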

Additional observations from a re-analysis of the deposited data

Results flagged for a closer look

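In 76 groups of 4 libraries (38 members in 2 genotypes), 5 held a library whose gap to its nearest neighbour was a larger part of the group's range than Dixon's critical value for 4 samples allows. Chance flags about 1 in 20 such groups, so this number is near what chance gives. For Homer2, control 1 at 84.9 CPM stood above the other controls at 76.4 to 76.9 CPM (gap 0.939 of the range). For Shank3, control 3 at 219 CPM stood above 202 to 204 CPM (0.906). For Dlgap3, control 4 at 178 CPM stood below 184 to 185 CPM (0.894), and for Nlgn2, control 2 at 125 CPM stood below 138 to 139 CPM (0.938). For Iqsec2, knockout 5 at 115 CPM stood above the other knockouts at 98.1 to 101 CPM (0.852). In each case the other 3 libraries lay very close together.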

How the results depend on the processing

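The count of all genes called, 1001, became 1566 with no filter, 1824 in DESeq2, 198 against a 1.2-fold change, 2183 at an adjusted p of 0.1, and 128 (without control 2) to 2055 (without knockout 4) with 1 library left out, and upper-quartile factors split the calls into 683 higher and 394 lower, against 535 and 466. Members lower (2) became 4 with no filter, 6 in DESeq2, 0 against a 1.2-fold change, 7 at an adjusted p of 0.1 and 0 to 3 with 1 library left out. None was left without knockout 5 or control 2, and 1 without knockout 2, control 1 or control 3. Members higher (0) became 1 in DESeq2 and 2 at an adjusted p of 0.1. Other postsynaptic genes higher (1) became 2 with upper-quartile factors, no filter or the GC and length trend removed, 4 in DESeq2, 0 against a 1.2-fold change, 6 at an adjusted p of 0.1 and 0 to 3 with 1 library left out. Those lower (3) became 0 against a 1.2-fold change, 5 at an adjusted p of 0.1 and 0 to 7 with 1 library left out. The labels pair no samples. A replicate block on the column numbers that both groups have (2, 3 and 4) left 3 genes called, 0 members and 0 other postsynaptic genes in either direction, with fewer libraries, and same-numbered columns did not deviate together (r 0.012, -0.21 and 0.22). Without any call, signs turned under that block for Lrrtm2 (-0.0325), Cnih2 (-0.0830), Baiap2 (-0.0325) and Iqsec1 (-0.0210). With 1 library left out they ranged over 0 for Lrrtm2 (-0.0710 to 0.157), Nrgn (-0.16 to 0.0385), Baiap2 (-0.0462 to 0.13), Iqsec1 (-0.0274 to 0.0606), Camk2g (-0.0071 to 0.11) and Map3k7 (-0.0926 to 1e-04). Dlgap2 and Homer2 kept their sign in all 17 alternative fits and passed in 12 and 11 of them. Dlg4 and Nrxn2 had too few counts to be tested, and Homer3 had the widest error of the tested members. The causes were not tested.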
